A study of Mus musculus with 2 samples.

Results

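Genes for mitochondrial protein import and for the fusion and fission of mitochondria were examined in mouse myotubes infected with a virus for a constitutively active form of estrogen receptor α or with a control virus. The members were every gene whose symbol starts with Timm or Tomm, the translocases of the inner and outer membrane, together with Mfn1, Mfn2, Opa1, Dnm1l and Fis1. Only probe sets annotated to a single gene were used, and for a gene with several the one with the highest mean over the 2 arrays was kept. The rule found 30 genes of 19938 named on the array, and 29 of them were measured. Measured means that the higher of the 2 log2 signals passed 5.11, the 95th percentile over 1210 probe sets for odorant and pheromone receptors (Olfr and Vmn symbols), which muscle is not thought to express. The exception was Timm8a2, with log2 signals of 3.56 in Ad-caERα and 3.51 in Ad-DsRed. A further Timm gene appears only on a probe set shared with another gene and was given no value.

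The samples were cells of C2C12, an established line of mouse myoblasts whose cells fuse to myotubes when serum is reduced. Both cultures were kept for 7 days in 2% horse serum and exposed to virus for 48 h, with a multiplicity of infection of 30. One received Ad-caERα, an adenovirus that carries the constitutively active estrogen receptor α, and the other Ad-DsRed, an adenovirus for the red fluorescent protein DsRed. Each vector was read on 1 array, so both arrays come from virus-infected cells of a single line and no array of uninfected cells was used here. The labels do not say how many culture dishes each RNA came from, nor do they give the species of the receptor or the change that makes it active.

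Most mitochondrial proteins are made in the cytosol and carried through the TOM complex of the outer membrane. From there, proteins with a cleavable presequence pass the TIM23 complex into the matrix. Carrier proteins are escorted across the intermembrane space by small TIM chaperones and inserted by the TIM22 complex. Mitofusins join outer membranes, OPA1 joins inner membranes and shapes cristae, and the dynamin DRP1 (gene Dnm1l) divides mitochondria with the help of adaptors in the outer membrane. Skeletal muscle depends on both systems to keep its mitochondria supplied with protein and connected along the fibre.

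Myotube identity was checked first. All 10 myotube markers were measured on the arrays, among them Myog, Myh3, Ckm and Acta1, with 9 of the 10 lower in Ad-caERα and a median difference of -0.12. The titin gene Ttn was furthest down, at 11.30 in Ad-caERα and 11.72 in Ad-DsRed. Of 5 leukocyte markers 4 were below the floor, of 4 endothelial markers 3, of 4 adipocyte markers 2 and of 3 osteoblast markers 2. Those below it included Ptprc, Pecam1, Cdh5, Adipoq, Fabp4 and Sp7. Cd3e, Tek, Plin1, Cidec and Alpl of these lists were measured. Tek was at 6.60 in Ad-caERα and 6.73 in Ad-DsRed, and the others were nearer to the floor. Absence of these cell types was therefore not shown. All 7 smooth muscle and fibroblast markers were measured, from Tagln (difference 0.59) to Pdgfrb (-0.39). The part of these marker differences in the results that follow was not tested. The mouse gene for estrogen receptor α, Esr1, was 2.08-fold higher in Ad-caERα (log2 signal 8.44) than in Ad-DsRed (7.38). Whether its probe set reads the introduced receptor, whose species is not known here, the cells' own Esr1 or both was not tested. The value is therefore no measure of how strongly the introduced receptor was expressed. In bulk RNA, fewer cells of a type and less RNA per cell cannot be told apart.

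Import genes were slightly higher in the array with the active receptor, whereas 4 of the 5 fusion and fission genes were not. Of the 29 measured genes, 22 had a positive difference (Ad-caERα minus Ad-DsRed on the log2 scale) and 7 a negative one. Over all 13554 measured genes 50.2% were positive and 48.8% negative. That background varied with signal level. From the floor to a mean log2 signal of 7, where 1 member lay, 37.8% of 4045 genes were positive. Between 7 and 12, where the other members lay, the share per log2 unit was 52.1% to 58.9%. The median difference was 0.13 for the import and dynamics genes and 0.0017 for all measured genes. Among the 24 measured Timm and Tomm genes 21 were positive, with a median of 0.15, while 1 of the 5 dynamics genes was positive, with a median of -0.065. With 1 array per vector no test could be made, and none of these counts has a replicate check.

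The sizes were small throughout. Genes were counted as differing where the 2 signals lay at least 0.32 apart on the log2 scale, called the rule of size here. By that rule 3 genes were higher, Fis1, Timm22 and Timm17b, and 0 were lower, against 7.34% and 6.76% of all measured genes. As a share, 3 of 29 is 10.3%, close to that background, so the rule does not set these genes apart. By a rule of at least 2-fold, 0 of 29 were called in either direction, against 0.590% higher, 0.0959% lower and 0.686% in all among measured genes. As a yardstick of measurement spread within the arrays, probe sets of the same gene differed with an SD of 0.13 on this scale, over 754 genes. A wider yardstick came from the 1210 odorant and pheromone receptor probe sets, whose differences had an SD of 0.22. Differences beyond the probe set SD were seen upwards in 14 members and downwards in 2, and 48.3% of all measured genes lay within it. A difference above that of Timm17a (0.131, just inside this SD) was held by 26.7% of measured genes. One below that of Timm44 (-0.14, just outside it) was held by 23.4%.

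**Figure D1:**
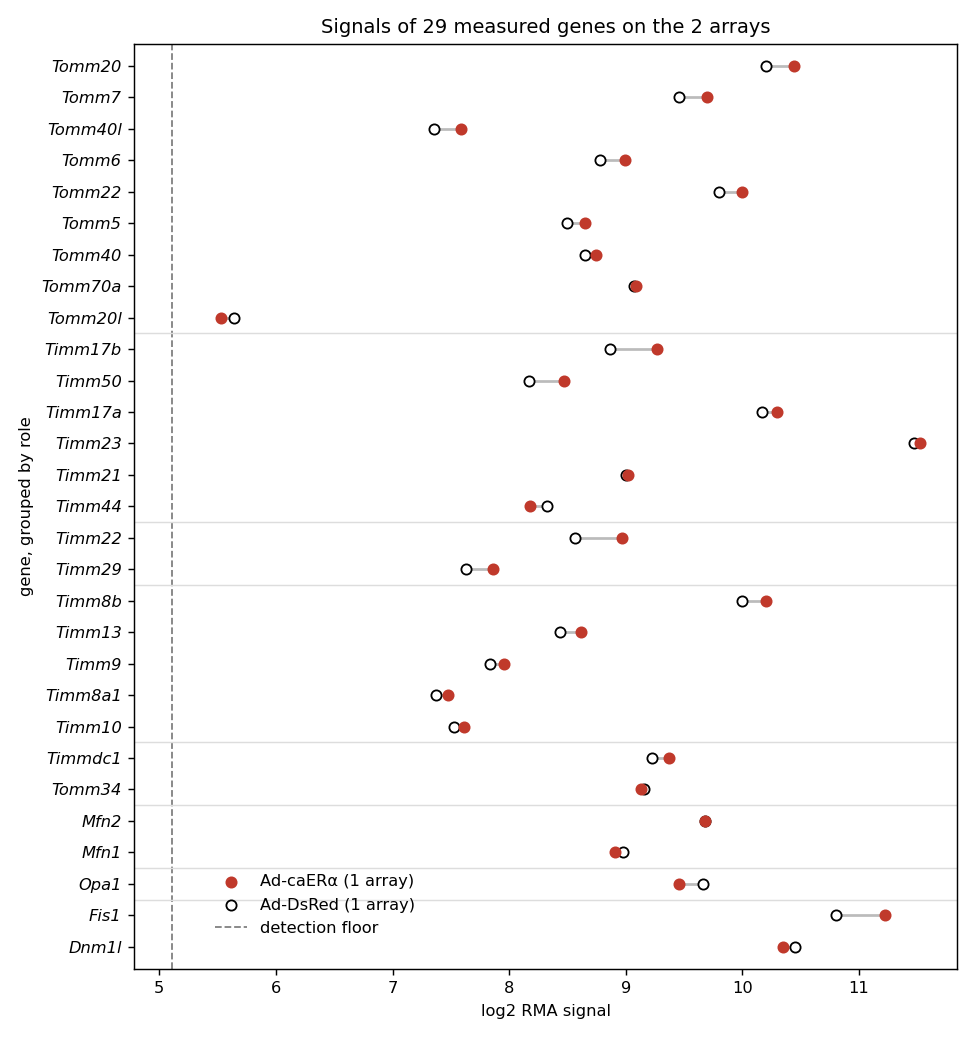
Log2 RMA signal (x axis) of the 29 measured genes (y axis, grouped by role) in Ad-caERα (filled) and Ad-DsRed (open), 1 array each; grey bars join the 2 values and the dashed line is the detection floor of 5.11. The filled point lies to the right in 22 genes, and the points of Mfn2, Tomm70a, Timm21 and Tomm34 nearly coincide.

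To show what lies upstream of genes at both ends of the range, a stretch is given for 4 members, from RefSeq with build GRCm38.p6. Each runs from 100 bases before to 20 bases after an annotated start. The members are Fis1 and Timm22, the highest, Timm8b, a small TIM gene with a binding motif of the estrogen-related receptors, and Opa1, the lowest. Fis1 and Timm22 have more than 1 annotated start, and the start with the lowest coordinate was used. All 4 stretches lie on the plus strand and read 5′ to 3′. Capitals mark matches to the motifs named after the sequences, and the Timm22 stretch has none.
Fis1, chr5:136953175-136953294: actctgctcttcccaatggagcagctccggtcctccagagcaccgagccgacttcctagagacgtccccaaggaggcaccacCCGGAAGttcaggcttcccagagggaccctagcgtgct
Timm22, chr11:76406825-76406944: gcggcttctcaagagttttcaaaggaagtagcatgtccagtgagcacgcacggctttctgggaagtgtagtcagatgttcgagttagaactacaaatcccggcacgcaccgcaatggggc
Timm8b, chr9:50603801-50603920: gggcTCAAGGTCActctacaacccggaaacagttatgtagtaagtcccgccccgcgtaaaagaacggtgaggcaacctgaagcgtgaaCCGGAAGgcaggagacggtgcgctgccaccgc
Opa1, chr16:29579234-29579353: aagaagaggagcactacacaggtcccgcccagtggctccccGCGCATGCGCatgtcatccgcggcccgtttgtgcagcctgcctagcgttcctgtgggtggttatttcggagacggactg

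The full windows, 250 bases before to 50 after each annotated start, were searched on both strands for 5 motifs. A window was held for 26 of the 29 measured genes; Timm21, Tomm40l and Tomm7 had none. Some genes had several annotated starts and windows, and a gene counted as matched where any of its windows held the motif. The palindromic estrogen response element, a pair of inverted arms 3 bases apart, matched 0 of the 26, against 0.0740% of 27025 genes with a window and 0.0280% of measured genes. Its single arm, AGGTCA, matched 6 of the 26 (23.1%), namely Timm13, Timm23, Timm44, Timm8b, Tomm6 and Tomm70a, against 18.1% of all genes and 15.1% of measured genes. The ERR element, TNAAGGTCA, which contains that arm, matched Timm8b alone among the members, against 1.43% of all genes and 0.925% of measured genes. The 10-base palindromic site of NRF1, a nuclear regulator of respiratory genes, matched Opa1 alone, against 1.07% of all genes and 2.16% of measured genes.

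The letters CCGGAAG, bound by the ETS factor GABP, matched 11 of the 26 genes (42.3%), against 9.93% of all genes and 18.3% of measured genes. Timmdc1, Timm10 and Tomm22 were among them, as were Fis1, Mfn1 and Dnm1l. Members with these letters had a median difference of 0.083 (8 of 11 above 0) and those without 0.13 (11 of 15 above 0). Both sets therefore covered nearly the same span, -0.10 to 0.42 with the letters and -0.21 to 0.40 without. The median GC content of the windows was 59.3% in members and 60.7% in measured genes. A match describes these windows only and is no evidence that a factor binds there.

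The TOM complex, the entry gate of the outer membrane, had 8 of 9 genes above 0 and a median difference of 0.20. Tomm20, the receptor that recognises presequences, had log2 signals of 10.45 in Ad-caERα and 10.20 in Ad-DsRed, a 1.18-fold difference. A second Tomm20 probe set differed by 0.30 in the same direction. Tomm22, the central receptor that links receptors and pore, was at 10.00 in Ad-caERα and 9.80 in Ad-DsRed. The pore itself, Tomm40, differed less, at 8.75 in Ad-caERα and 8.65 in Ad-DsRed, and its paralogue Tomm40l was at 7.59 in Ad-caERα and 7.35 in Ad-DsRed.

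The small TOM subunits, which stabilise the pore, all lay above 0. Tomm7 was at 9.70 in Ad-caERα and 9.46 in Ad-DsRed. Tomm6 was at 8.996 in Ad-caERα and 8.78 in Ad-DsRed, and Tomm5 at 8.65 in Ad-caERα and 8.50 in Ad-DsRed. The differences of these 3 genes, 0.24, 0.22 and 0.15, exceeded the probe set SD. Among them only that of Tomm7 also exceeded the SD of the odorant and pheromone receptor probe sets. Tomm70a, the receptor for carrier precursors and for chaperone-bound cargo, was level at 9.09 in Ad-caERα and 9.07 in Ad-DsRed. The sole TOM gene below 0 was Tomm20l, a Tomm20-like gene close to the floor, at 5.53 in Ad-caERα and 5.64 in Ad-DsRed.

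In the TIM23 complex, the presequence translocase of the inner membrane, 5 of 6 genes were above 0, but the spread was wide and the median was 0.091. With the trend of all measured genes on gene span subtracted, an alternative chosen after seeing the data, that median was 0.056 and 4 of the 6 were above 0. Timm17b was at 9.27 in Ad-caERα and 8.87 in Ad-DsRed, 1.32-fold higher, and 4.46% of measured genes had a larger difference. Its paralogue Timm17a, which takes the same place in an alternative form of the complex, was at 10.30 in Ad-caERα and 10.17 in Ad-DsRed, a difference of 0.13. Timm50, the receptor that hands presequences to the channel, was at 8.47 in Ad-caERα and 8.17 in Ad-DsRed, 1.23-fold higher. These 3 genes carried most of the group's positive differences.

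The channel protein and the motor anchor did not follow them. Timm23, the channel-forming subunit, was at 11.52 in Ad-caERα and 11.47 in Ad-DsRed, a difference of 0.051. Its 4 probe sets differed by 0.034 to 0.051, and 2 of them held identical values on both arrays, so they are not separate measurements. Timm21, which couples the complex to the respiratory chain, was at 9.02 in Ad-caERα and 9.002 in Ad-DsRed. Timm44, which anchors the import motor with its Hsp70 to the channel, was the one member of the group below 0, at 8.18 in Ad-caERα and 8.32 in Ad-DsRed.

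The TIM22 complex inserts carrier proteins into the inner membrane, and both of its measured Timm genes were above 0. Timm22, the channel-forming subunit, was at 8.97 in Ad-caERα and 8.56 in Ad-DsRed, 1.32-fold higher, the second largest difference of all 29 genes. Timm29, a metazoan subunit that supports assembly of the complex, was at 7.86 in Ad-caERα and 7.63 in Ad-DsRed, 1.17-fold higher. Agk, a lipid kinase that is also a subunit of the mammalian complex, was nearly level at a difference of 0.040. The cargo did not show the same pattern as a family: of 39 measured mitochondrial carrier genes (Slc25) 22 were above 0, with a median of 0.024.

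All 5 measured small TIM chaperones, which shield hydrophobic precursors in the intermembrane space, were above 0, with differences of 0.083 to 0.20. With the same gene span trend subtracted, Timm10 (0.021) and Timm8a1 (0.035) were nearer to 0 and Timm8b was at 0.17. Timm8b was at 10.20 in Ad-caERα and 10.00 in Ad-DsRed. Timm13, whose product pairs with TIMM8A in one of the chaperone hexamers, was at 8.62 in Ad-caERα and 8.43 in Ad-DsRed. The other hexamer is made of TIMM9 and TIMM10: Timm9 was at 7.96 in Ad-caERα and 7.84 in Ad-DsRed, and Timm10 at 7.61 in Ad-caERα and 7.53 in Ad-DsRed. Timm8a1, the mouse counterpart of the human deafness-dystonia gene, was at 7.48 in Ad-caERα and 7.38 in Ad-DsRed, and its second probe set differed by 0.18. Of the probe sets kept, only those of Timm8b and Timm13 exceeded the probe set SD. The second probe set of Timm8a1 also did. None of these exceeded the SD of the odorant and pheromone receptor probe sets.

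A pair of genes share the family name but act elsewhere. Timmdc1, an assembly factor of respiratory complex I, was at 9.37 in Ad-caERα and 9.23 in Ad-DsRed. Tomm34, a cytosolic cochaperone, was level, at 9.13 in Ad-caERα and 9.16 in Ad-DsRed. Without these, Tomm20l and the dynamics genes, 20 of 21 import genes were above 0, with a median of 0.19, and Timm44 was the exception. That narrower list was chosen after the values were seen.

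**Figure D2:**
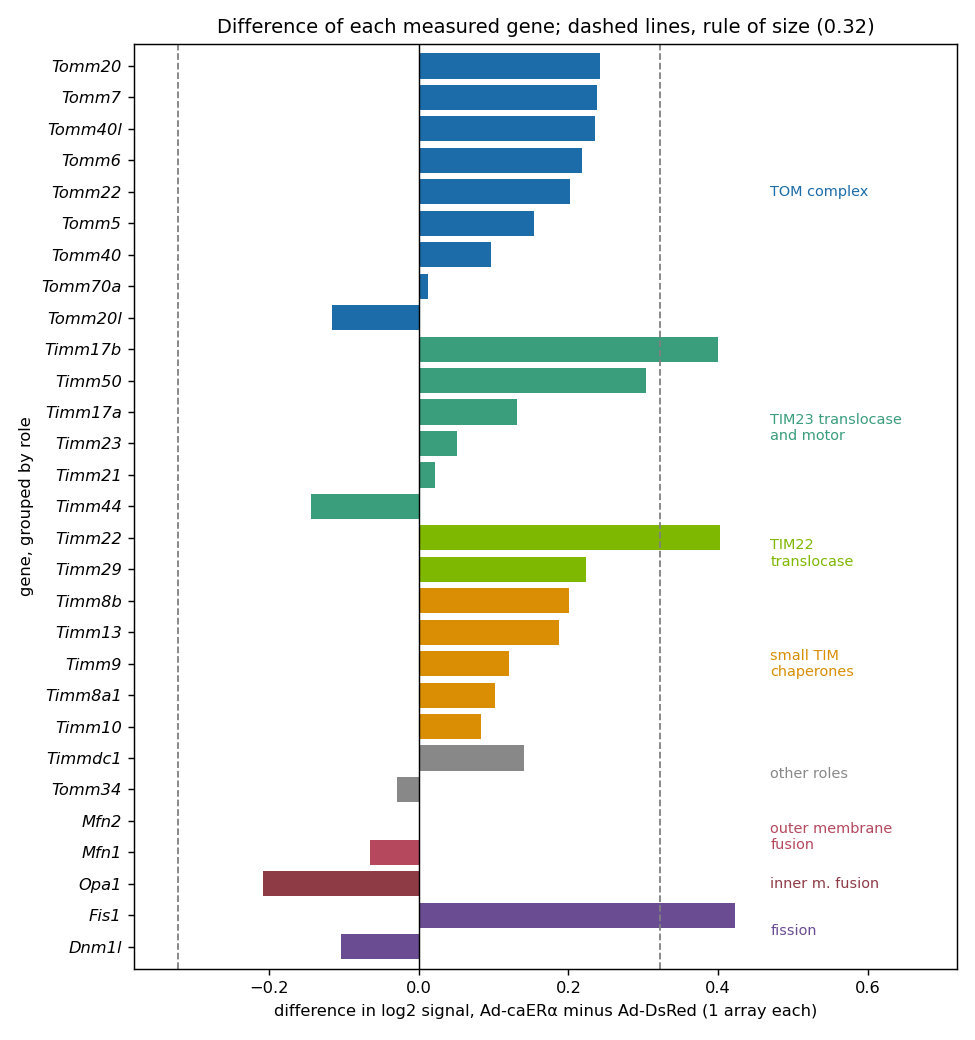
Difference in log2 signal, Ad-caERα minus Ad-DsRed (x axis), of each of the 29 measured genes (y axis), coloured by role; each bar is 1 array minus 1 array and dashed lines mark the rule of size at 0.32 either way. Fis1, Timm22 and Timm17b pass the dashed line on the right and Opa1 reaches furthest to the left.

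Among the fusion genes no member was higher with the active receptor. Opa1, the dynamin-like protein that fuses inner membranes and holds cristae junctions closed, had the lowest difference of all members, with log2 signals of 9.45 in Ad-caERα and 9.66 in Ad-DsRed. That is 1.16-fold lower, and 15.5% of measured genes had a still lower difference. Mfn2, the mitofusin that also tethers mitochondria to the endoplasmic reticulum, was the same on both arrays at 9.68. Mfn1, the other mitofusin, was at 8.91 in Ad-caERα and 8.97 in Ad-DsRed, a difference of -0.065 that is smaller than the probe set SD.

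The 2 fission genes went in opposite directions. Fis1, a tail-anchored protein of the outer membrane, had the largest difference of all members, with log2 signals of 11.23 in Ad-caERα and 10.80 in Ad-DsRed. It was 1.34-fold higher, and 3.89% of measured genes had a larger difference. Dnm1l, the dynamin that constricts the organelle, was at 10.35 in Ad-caERα and 10.45 in Ad-DsRed, a difference of -0.10. The other dynamics genes all lay at or below 0, between -0.21 and -0.00022.

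The other adaptors and processing enzymes of mitochondrial dynamics were centred near 0. Of 25 measured genes in that list 13 were above 0 and 12 below, with a median of 0.016, and 1 passed the rule of size. That gene was Mief2, which encodes the DRP1 adaptor MiD49, at a difference of 0.32. Next came Oma1 (0.23), the protease that cleaves OPA1 under stress. Mff, the main adaptor of DRP1 in mammals, was level at -0.015 and Mief1 at 0.016. The lowest were Mtfr2 (-0.27), a regulator of fission, and Trak1 (-0.13), an adaptor for transport along microtubules.

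Of 30 further import genes, all measured, 22 were above 0 (73.3%) and 8 below, with a median of 0.13. Gfer, the sulfhydryl oxidase of the intermembrane space disulfide relay, was highest at 0.36 and the sole member past the rule of size. Its partner Chchd4, which oxidises small TIM proteins and other substrates, was at -0.014. Mtx1, a metaxin of the outer membrane sorting machinery, followed Gfer at 0.28. Hspd1, the mitochondrial chaperonin Hsp60, was lowest at -0.22, and Hspa9, the Hsp70 of the import motor, was next at -0.16. Other chaperones of the matrix lay on both sides of 0: Hspe1, the cofactor of Hsp60, was at -0.050, Trap1, the mitochondrial Hsp90, at 0.25, and Grpel1, a nucleotide exchange factor of Hspa9, at 0.12. Dnajc19, the J-domain protein that stimulates Hspa9 at the channel, was at 0.24, and its J-like partner Pam16 at 0.22.

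Among genes of the MICOS complex, which holds cristae junctions and contacts the TOM complex, 6 of 7 were above 0 with a median of 0.097. Micos10 (0.31) and Micos13 (0.25) were highest, while Immt, the core subunit mitofilin, was at 0.032 and Chchd6 at -0.055. In the mitophagy list 10 of 12 measured genes were above 0, with a median of 0.14. Bnip3, an outer membrane receptor for autophagosomes, was at 10.67 in Ad-caERα and 10.04 in Ad-DsRed, 1.55-fold higher. Pink1, the kinase that is imported and degraded in healthy mitochondria and accumulates on the TOM complex of damaged ones, was at 9.63 in Ad-caERα and 9.05 in Ad-DsRed, 1.498-fold higher. Both exceeded every member of the import and dynamics genes. Bnip3l, a close relative of Bnip3, was at -0.035.

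Regulators of mitochondrial biogenesis had a median of -0.043, with 12 of 17 measured genes below 0 (70.6%), against 48.8% of all measured genes. Ppargc1b and Ppargc1a, the coactivators PGC-1β and PGC-1α, were lowest at -0.53 and -0.43. Ppargc1b was at 7.76 in Ad-caERα and 8.29 in Ad-DsRed. Ppargc1a lay close to the floor of 5.11, at 5.43 in Ad-caERα and 5.86 in Ad-DsRed. In that range, up to a mean log2 signal of 7, 37.8% of all measured genes were positive. Tfb1m (0.16), a mitochondrial rRNA methyltransferase, and Esrra (0.16), which encodes the estrogen-related receptor α, were highest. Nrf1 was at -0.083 and Gabpa, the DNA-binding subunit of GABP, at -0.095. The members of the import list therefore had a positive median on the same arrays on which these regulators had a negative one. The median of the regulators was smaller in size than the probe set SD of 0.13. Any link between the regulators and the import genes was not tested.

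Set beside other nuclear gene families for mitochondrial proteins, the import genes had a median close to that of 2 of them. The 24 Timm and Tomm genes had 87.5% above 0 and a median of 0.15. Complex I genes (Nduf) had 38 of 43 above 0 and a median of 0.15, and mitochondrial ribosomal protein genes had 70 of 77 above 0 and a median of 0.15. By the rule of size, 2 of the 24 Timm and Tomm genes (8.33%) were higher, against 7.34% of all measured genes. Higher by it were also 8 of 43 complex I genes (18.6%) and 12 of 77 mitochondrial ribosomal protein genes (15.6%). None of these families had a gene lower by it, against 6.76% of all measured genes. The carrier family had a median of 0.024, with 5 of 39 genes (12.8%) higher and 2 (5.13%) lower by the rule. Cytosolic ribosomal protein genes, which are not mitochondrial, had 44 of 57 above 0 and a median of 0.066. These are counts on the same 2 arrays and the differences between families were not tested.

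**Figure D3:**
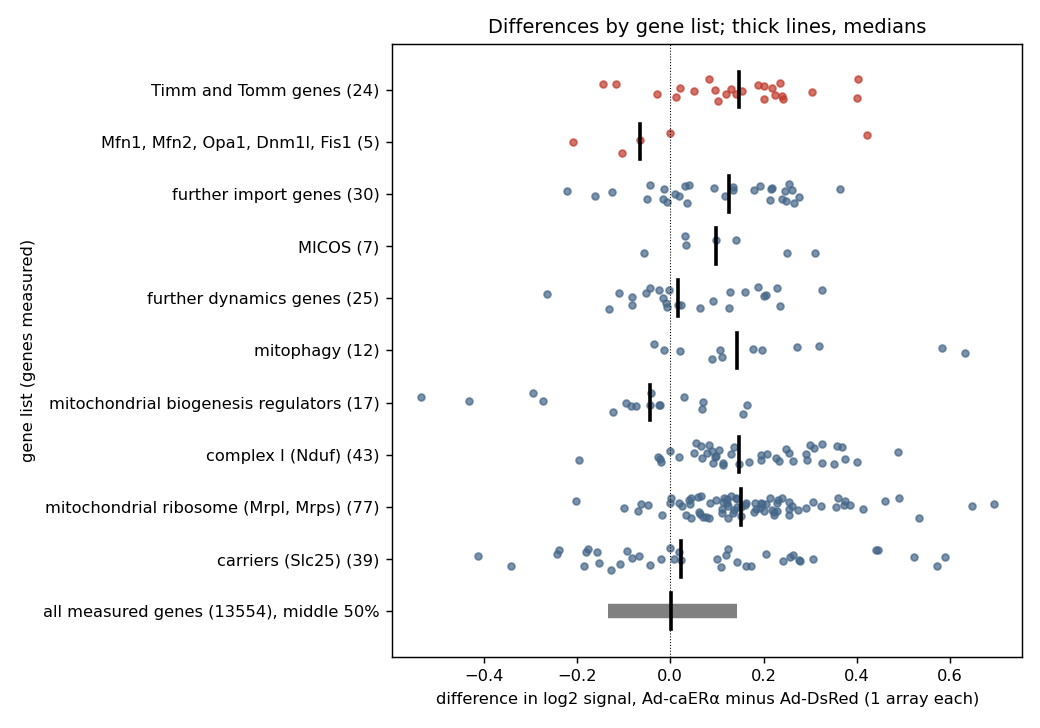
Difference in log2 signal, Ad-caERα minus Ad-DsRed (x axis), of every measured gene in each list (y axis; 1 point per gene, spread vertically for legibility, thick line at the median); the bottom bar is the middle 50% of all 13554 measured genes. Medians of the Timm and Tomm, complex I and mitochondrial ribosome lists lie near 0.15 and that of the dynamics genes lies below 0.

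The members also differed by gene size. Gene span, the length from first to last annotated base in RefSeq, was available for all 29. All 14 members under 10 kb were above 0, with a median of 0.21. Of the 10 members between 10 and 30 kb 7 were above 0 (median 0.11), and of the 5 members of 30 kb and over 1 was above 0 (median -0.065). The last class holds Mfn1, Mfn2, Opa1, Dnm1l and Tomm70a, so all but one of the dynamics genes are in it; Fis1, at 13.0 kb, is the short one. Opa1, the lowest member, spans 83.8 kb.

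All measured genes showed a smaller gradient of the same kind. Genes under 10 kb had a median of 0.066 with 58.7% above 0, and genes of 30 kb and over a median of -0.049 with 38.0% above 0. Across the 29 members the difference and log10 span had Pearson's r of -0.54 and Spearman's rho of -0.55. Across 13515 measured genes these were -0.14 and -0.21, and genes that share 2 arrays are not independent points. With the trend on span over all measured genes subtracted, 22 of the 29 members were above 0, and the median of the 29 was 0.087. Of the 22 above 0 as deposited, 21 were among them. Timm21 moved to -0.044, and Mfn2 came to 0.00064. Opa1, Dnm1l and Mfn1 came nearer to 0, at -0.15, -0.076 and -0.032, and the TOM complex median went from 0.20 to 0.15. Fis1, Timm22 and Timm17b then still passed the rule of size. The gradient subtracted was smaller than that among the members, so its subtraction need not remove theirs. The part of gene span in the split between import and dynamics genes was not tested further.

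**Figure D4:**
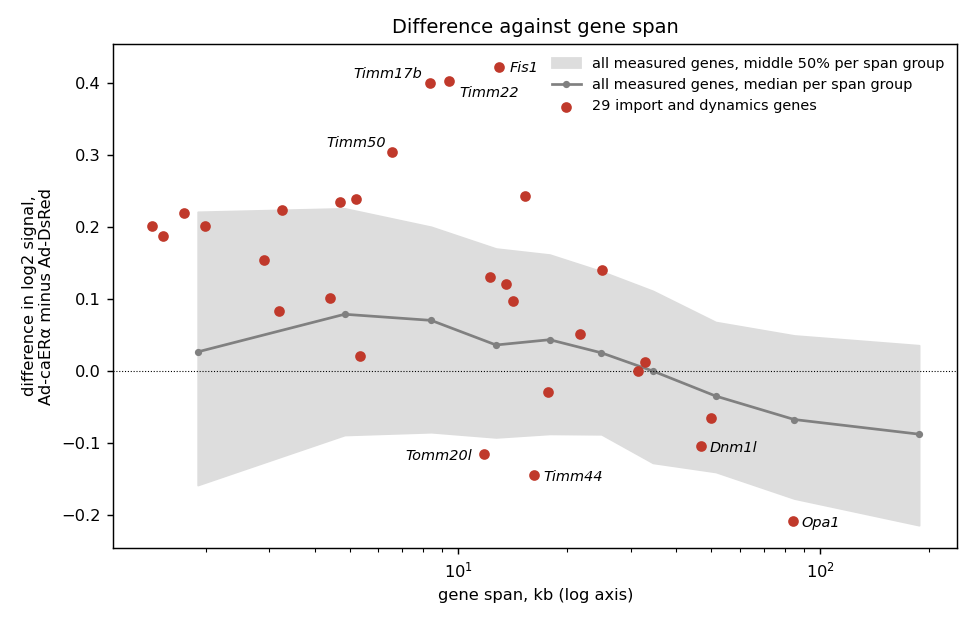
Difference in log2 signal, Ad-caERα minus Ad-DsRed (y axis), against gene span in kb (log x axis) for the 29 measured genes (red points); the grey line and band are the median and middle 50% of all measured genes in 10 equal groups by span. The 14 genes under 10 kb all lie above 0, and the genes furthest right, with Opa1 last, lie below it.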

How the data were processed

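Total RNA of 2 cultures, Ad-caERα and Ad-DsRed, was hybridised to 1 Affymetrix array each. The deposited columns hold log2 signals, 1 value for each probe set, made with Affymetrix Expression Console and RMA per the submitters' processing notes; versions and probe filters were not given in the sources used here. Differences between weak signals are shrunk by RMA, and its quantile step removes any change in total mRNA. Of 35556 probe sets, the platform annotation named 1 gene for 21789, several for 1621 and none for 12146. Gene identifiers of all 30 members matched RefSeq (GRCm38.p6), with 0 symbols changed. The number of arrays limits the precision: with 1 per vector, differences were described without a test, by sign, by median and by 2 rules of size (0.32 on the log2 scale and 2-fold), beside all measured genes. Members and lists were chosen with earlier results of these data known. Every member is named; in other lists, up to 2 highest and 2 lowest members and PGC-1 coactivators and Esrra. Other genes named there (Chchd4, Hspe1, Trap1, Grpel1, Agk, Pam16, Dnajc19, Mff, Mief1, Nrf1, Gabpa) and single markers were picked for their roles after values were seen. Alternatives covered the floor, normalization (loess fraction 0.3), probe set rule, thresholds, summaries and, added after seeing the data, gene span. The code was tested on simulated data. Python 3.11.15, numpy 2.4.6, pandas 2.3.3, scipy 1.17.1, statsmodels 0.14.6 and matplotlib 3.10.9 were used.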

Additional observations from a re-analysis of the deposited data

How the results depend on the processing

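No paired analysis was possible because each vector has 1 array, which also leaves no replicate to omit and no measure of spread between cultures. Under other floors, normalizations, summaries, probe set rules and the correction for gene span, members above 0 numbered 20 to 23, those below 0 numbered 6 to 9, and the median difference was 0.087 to 0.16. The sign of Mfn2, Timm21 and Tomm70a, all near 0, changed in 6 of 259 recalculated single-gene values. The number past the fold rule moved with the threshold itself: at 1.5-fold 0 genes were higher, and at 1.2-fold 4 genes were higher or lower, all of them higher. The share of all measured genes past these thresholds was not counted. For scale, 8.46% of measured genes had a larger difference than Timm50, the lowest of the 4. A larger one than that of Tomm20, the next member and below 1.2-fold, was held by 13.0%. Median centring moved the median of all measured genes from 0.0017 to 0.032, and the share above 0 from 50.2% to 56.6%.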
